A study of Danio rerio with 4 samples.

Results

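The sites described here are stretches of chromatin that carried a called peak of acetylated histone H3 lysine 27 (H3K27ac) in both *Epi/FB:dnAP-1* libraries and in neither control library. H3K27ac was profiled by CUT&Tag, in which an antibody tethers a transposase to chromatin so that the surrounding DNA is cut, tagged and sequenced, in nonmyocytes (nonCMs) freshly taken from adult zebrafish hearts, from the injury area, 7 days after apex resection. There were 2 *Epi/FB:dnAP-1* libraries and 2 control libraries, which the study calls biological duplicates. *Epi/FB:dnAP-1* fish carried TgBAC(tcf21:Cre-ERT2), together with a *ubb* transgene in which a loxp-flanked dsRed cassette precedes Flag-tagged dnAP-1. They received 4-hydroxytamoxifen before injury, so that Cre from the *tcf21* transgene released a dominant-negative AP-1. The gene *tcf21* is one of epicardial cells and cardiac fibroblasts, and the study reports from Flag staining that expression was specific to these cells. In the methods, controls carry the same transgenes and received ethanol vehicle, whereas the labels of both control libraries name them CTRL or WT and no more. The chromatin came from all nonCMs, so a changed share of a cell type and a changed level of acetylation within its cells cannot be told apart, and these lists hold no gene expression against which the cell types could be checked.

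H3K27ac is laid down by acetyltransferases such as p300 and CBP and marks active promoters and enhancers. AP-1, a dimer of Fos and Jun proteins, binds a short motif that is common in enhancers opened after injury, and it recruits such acetyltransferases. A dominant-negative AP-1 blocks the activity of the Fos and Jun proteins of the cell. The sites described here were called in its presence only.

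Merging of the 4 lists, wherever peaks shared at least 1 bp, gave 51678 sites. Of these, 40933 remained on chromosomes 1 to 25 after sites within 1 Mb of the first or last peak of a chromosome, sites on chromosome 4 from 30 Mb on, and a block at 31.39 to 31.60 Mb on chromosome 23 were set aside. The *Epi/FB:dnAP-1*-only sites were chosen by presence in each *Epi/FB:dnAP-1* list and absence from each control list. There were 3000, or 7.33% of the 40933 sites. The mirror rule, both control lists and no *Epi/FB:dnAP-1* list, gave 1149 control-only sites, or 2.81%. A further 14113 sites (34.5%) were called in all 4 lists. Since the groups themselves define the sites, all comparisons of signal between groups are descriptions with no test, and sites are not replicates of a condition.

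The lists were cut at different levels, which bears directly on these counts. Each list holds the total signal of a peak, which is the coverage summed over its bases after the authors' scaling of the library, and the maximum coverage in it. The lowest total signal kept in *Epi/FB:dnAP-1* replicate 1 was 7490, and that in replicate 2 was 9203. Control replicate 1 went down to 12993 only, and control replicate 2 to 10480. Only 371 of the 3000 sites (12.4%) had, in both *Epi/FB:dnAP-1* libraries, a total signal at or above the lowest of control replicate 1, and 1118 (37.3%) at or above the lowest of control replicate 2. In 1772 sites (59.1%), both totals lay below every peak of control replicate 1, and in 633 (21.1%) below every peak of control replicate 2. With 1 common minimum for all lists, the order of the counts turned round, to 579 *Epi/FB:dnAP-1*-only and 1845 control-only sites. Every maximum is a whole multiple of a step, which is 0.68 in each *Epi/FB:dnAP-1* list, 1.26 in control replicate 1 and 1.38 in control replicate 2. A common minimum counted in these steps, which takes out the scaling, gave 5991 *Epi/FB:dnAP-1*-only and 154 control-only sites. Steps leave any difference in sequencing depth uncorrected. Control peaks spanned fewer steps, with median maxima of 16 (replicate 1) and 14 (replicate 2), next to 34 and 37 for *Epi/FB:dnAP-1* replicates 1 and 2. How far depth shaped the counts in steps was not tested. With equal numbers of peaks per list the counts were 2382 and 1365. The order of the counts thus turned with the scale on which the libraries were compared. It also turned when a control list was left out, which eases the mirror rule, with 5128 and 5417 sites without control replicate 1 and 5140 and 5870 without control replicate 2. Of the 3000 sites, 349 (11.6%) overlapped a site called under both common minima and under equal numbers of peaks alike, and 185 (6.17%) did so also when only the stronger 50% of each list was used.

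The neighbours of the rule show how gradual it is. Sites in both *Epi/FB:dnAP-1* lists and in 1 control list numbered 4023 and had median maxima of 20.40 in both *Epi/FB:dnAP-1* replicates, next to 20.40 and 19.72 at the *Epi/FB:dnAP-1*-only sites. The single control peak at those 4023 sites stood at the median at the 32.1 percentile of its list. Sites in 1 *Epi/FB:dnAP-1* list alone numbered 5791 and were lower, with median maxima of 10.88 in each. The member closest to the first or last peak of its chromosome, chr22:38105319-38107654 (all coordinates are those of GRCz11), lay 1.02 Mb from it, with maxima of 27.88 and 17.00. The nearest site beyond that limit, chr23:45232522-45235860, lay at 0.988 Mb, with maxima of 11.56 and 12.92.

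The *Epi/FB:dnAP-1*-only sites were narrow. The peaks of 1 list at a site, with their widths summed, covered medians of 1769 and 2157 bp (*Epi/FB:dnAP-1* replicates 1 and 2). At sites called in all 4 lists these medians were 2661 and 3218 bp in the same libraries. At control-only sites they were 3417 and 2926 bp in the control replicates. A site can hold several peaks of a list, so these are not widths of single peaks. Merging joins peaks of 2 lists here and of 4 lists at sites called in all. After it, the widths of the *Epi/FB:dnAP-1*-only sites ran from 579 to 12665 bp, with a median of 2356 bp. The median was 4028 bp for control-only sites and 4334 bp for sites in all 4 lists. Of the 3000, 1126 (37.5%) were under 2 kb wide, against 16 (1.39%) of the control-only sites and 789 (5.59%) of the sites in all lists. Only 219 (7.30%) were over 5 kb wide, against 317 (27.6%) and 5740 (40.7%). The cutoffs bear on width too, since total signal sums over the bases of a peak. On the authors' scale the *Epi/FB:dnAP-1* lists reach lower totals than the control lists, whereas in steps they were cut higher. The 3000 sites had median totals of 10043 and 11708, next to lowest totals of 12993 and 10480 in the control lists. How much the cutoffs add to the narrowness was not tested. The 185 sites called under all the settings above were wider, with a median of 3346 bp. Together the 3000 sites covered 8.19 Mb, and the 1149 control-only sites covered 5.04 Mb.

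Within their own lists the sites ranked low by total signal. Their median percentile was 32.0 in *Epi/FB:dnAP-1* replicate 1 and 25.3 in replicate 2, where 100 is the strongest peak, and control-only sites had 32.3 and 33.2 in the control replicates. By height they stood nearer to the middle. Median maxima of 20.40 and 19.72 were 0.88 and 0.78 times the median of all peaks of the same list, whereas the control-only medians, 12.60 and 12.42, were 0.62 and 0.64 times that of their own. The maximum of a site was 3.20 and 3.25 times its mean signal per base at the median in the *Epi/FB:dnAP-1* libraries, against 2.64 and 2.52 times for control-only sites in the control libraries. Sites in all 4 lists were sharper than each class in the same libraries, with ratios of 4.08 and 4.11 for *Epi/FB:dnAP-1* replicates and of 3.44 and 3.16 for control replicates. The *Epi/FB:dnAP-1*-only sites were thus narrow, of moderate height and low in area. Their lists were cut at lower totals than the control lists on the authors' scale, and at higher totals in steps.

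**Figure D1:**
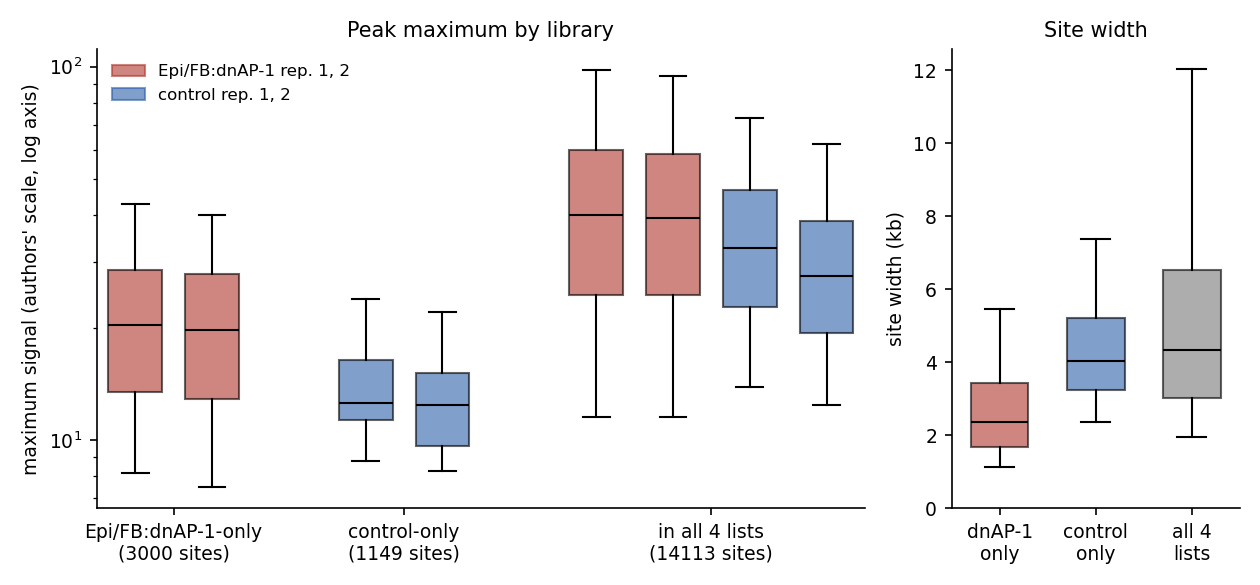
Left, maximum signal (authors' scale, log axis) per library at *Epi/FB:dnAP-1*-only sites, control-only sites and sites called in all 4 lists; right, width of these sites in kb. Boxes span the quartiles with the median as a line and whiskers run from the 5th to the 95th percentile of sites; the *Epi/FB:dnAP-1*-only sites have medians of 20.40 and 19.72 and the smallest median width, 2356 bp.

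A tall group and a flat group stood at the ends of this range. In 131 sites (4.37%) the maximum reached, in both replicates, the median of sites called in all 4 lists (40.12 and 39.44), and these were narrow, with a median width of 1478 bp. The 3 tallest by their lower replicate were chr3:36218549-36219203, with 89.08 and 78.88 (*Epi/FB:dnAP-1* replicates 1 and 2), chr14:37742976-37744492, with 99.28 and 76.16, and chr2:32049964-32050800, with 86.36 and 69.36. All 3 had their maxima within 3 bp of each other in the replicates, and the nearest control peaks, 2393, 4904 and 2593 bp away, had maxima of 36.54, 22.68 and 17.64. At the other end, 248 sites (8.27%) stayed under a maximum of 10 in both replicates and were broad, with a median width of 4120 bp.

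By total signal, the strongest site was chr14:16975642-16986889. It was 11248 bp wide and reached totals, summed over its peaks, of 49227 and 55346 (*Epi/FB:dnAP-1* replicates 1 and 2). Its highest percentiles by a single peak were 80.9 and 92.4, and its maxima of 87.72 and 68.00 lay in the same place. The nearest control peak was 4707 bp away, with a maximum of 11.04 in control replicate 2. The next by their weaker replicate were chr22:8963801-8968738 (maxima 36.72 and 37.40), chr19:17300975-17309566 (27.88 and 31.96), chr15:37424063-37432368 (14.96 and 12.92) and chr15:42736338-42738867 (35.36 and 38.76). The last of these stood 83.5 kb from the nearest called control peak, and the other 3 were 3.37 to 29.0 kb from one. The lists hold no control signal below their cutoffs. All 5 sites were among the 185 that were called under each of the settings above. Those settings are cutoffs on total signal, by which these 5 were picked, so this is no separate support for them. The widest, chr19:19435760-19448424, spanned 12665 bp, but its maxima of 10.88 and 19.04 lay 10573 bp apart in the replicates. The next, chr12:13948424-13960156, spanned 11733 bp with maxima of 6.12 and 6.80 and lay 865 bp from a control peak with a maximum of 136.08. The maxima of these 2 wide members were lower than those of the strong site on chromosome 14.

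The replicates placed these sites with precision. The distance between the maxima of the 2 *Epi/FB:dnAP-1* replicates had a median of 48.5 bp, with quartiles of 11.0 and 158 bp, and 2401 sites (80.0%) had them within 200 bp. For control-only sites the median between the 2 control replicates was 470 bp, and 354 (30.8%) had them within 200 bp. At sites in all 4 lists the medians were 34.5 bp for *Epi/FB:dnAP-1*, and 85.0 bp in control libraries. Sites in all 4 lists with maxima inside the middle 50% of each class were set beside it. For heights like those of *Epi/FB:dnAP-1*-only sites, 2686 such sites had a median of 63.0 bp in the *Epi/FB:dnAP-1* libraries. For heights like those of control-only sites, 897 such sites had a median of 459 bp in the control libraries. Each class thus placed its maxima about as closely as sites in all 4 lists of the same height and libraries. Across the 3000 sites, log2 maxima of the 2 *Epi/FB:dnAP-1* replicates had a Pearson correlation of 0.89. Across control-only sites it was 0.57 in the control replicates. Across sites in all lists it was 0.95 in the *Epi/FB:dnAP-1* replicates and 0.87 in the control replicates. In the sets of like height, whose maxima span a limited range, it was 0.50 (*Epi/FB:dnAP-1* libraries) and 0.22 (control libraries). These correlations are over sites within libraries, which are not independent replicates. Replicate 1 had the higher maximum in 1506 sites (50.2%).

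**Figure D2:**
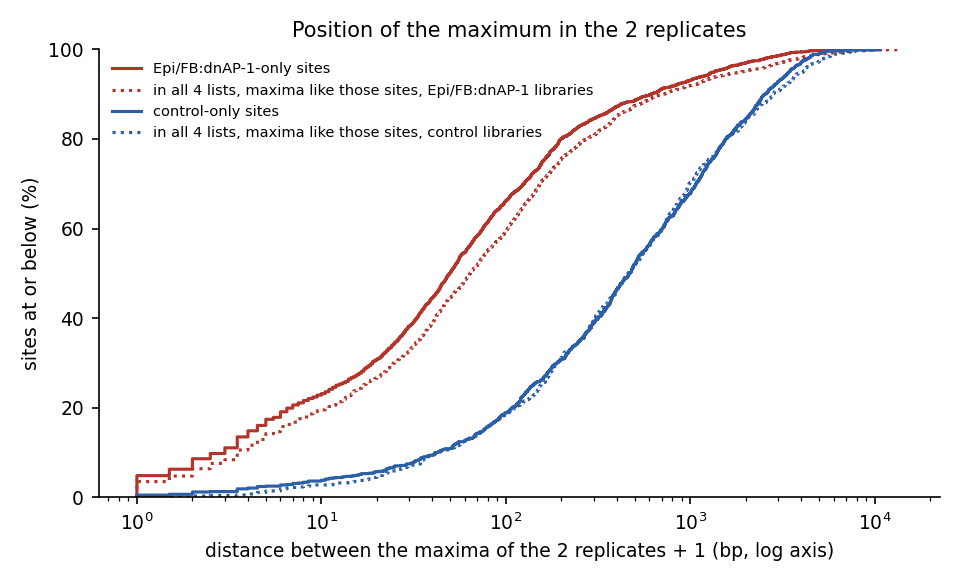
Cumulative share of sites (%) against the distance between the maxima of the 2 replicates of a group (bp plus 1, log axis). The *Epi/FB:dnAP-1*-only sites, with a median of 48.5 bp, lie far left of the control-only sites, with 470 bp, and each lies close to the sites in all 4 lists that have maxima in the same range (dotted).

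The sites lay on every chromosome in like shares. Of the sites kept on a chromosome, between 6.09% (chromosome 17) and 8.91% (chromosome 10) were *Epi/FB:dnAP-1*-only, around the 7.33% over all. Control-only shares ran from 2.10% (chromosome 13) to 4.64% (chromosome 4). The median gap between neighbouring *Epi/FB:dnAP-1*-only sites was 229 kb, with quartiles of 62.5 and 573 kb.

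The nearest control peak was at a median distance of 5547 bp, and 1912 sites (63.7%) had one within 10 kb. A site called in all 4 lists lay within 10 kb of 1254 sites (41.8%), at a median distance of 14519 bp. Control-only sites were farther from both, with 30.9% within 10 kb of a site in all lists and a median of 8861 bp to the nearest *Epi/FB:dnAP-1* peak. These distances were not taken over all kept sites, so nearness is not shown to be particular to *Epi/FB:dnAP-1*-only sites. Of the *Epi/FB:dnAP-1*-only sites, 228 (7.60%) lay within 500 bp of a control peak and 465 (15.5%) within 1 kb. The shares of control-only sites that near to an *Epi/FB:dnAP-1* peak were lower, 4.35% and 10.3%. Sites that touched a peak of the other group were left out by the rule. At the other end, 219 *Epi/FB:dnAP-1*-only sites (7.30%) were over 50 kb and 75 over 100 kb from any control peak. Signal differed little with this distance. Median maxima were 19.04 in both replicates at sites within 1 kb of a control peak, and 22.44 and 21.76 at those over 50 kb away. The most isolated site, chr11:16972720-16975418, lay 369 kb from any control peak and had maxima of 22.44 and 21.08, 3.50 bp apart. It ranked low, at the 5.75 and 37.0 percentiles of total signal, and was called under neither common minimum, nor with equal numbers of peaks, nor in the stronger 50% of the lists.

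**Figure D3:**
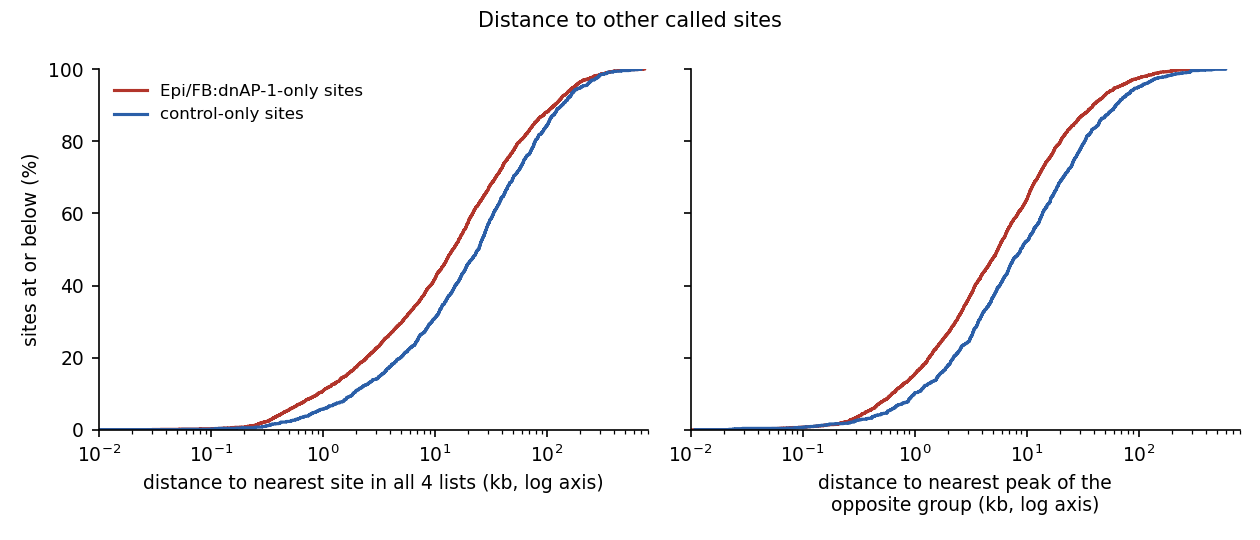
Cumulative share of sites (%) against the distance (kb, log axis) to the nearest site called in all 4 lists (left) and to the nearest peak of the opposite group (right). The *Epi/FB:dnAP-1*-only sites are nearer to both than the control-only sites, with medians of 14519 and 5547 bp. Distances over all kept sites were not taken.

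The nearest called site to an *Epi/FB:dnAP-1*-only site was another one in 338 cases (11.3%), while for all kept sites the nearest was of this class in 7.73%. It was a site called in all 4 lists in 1077 cases (35.9%), next to 36.1% for all kept sites, so the sites lay beside such sites about as often as any other. It was a control-only site in 52 cases (1.73%), against 2.73% for all kept sites. Control-only sites had a control-only neighbour in 67 of 1149 cases (5.83%).

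Sites called in all 4 lists have a measured level in every library, so their levels beside *Epi/FB:dnAP-1*-only sites can be described. They were picked by closeness to sites that the same contrast of groups defines. Their levels are therefore no independent readout of that contrast. There were 1577 sites called in all 4 lists within 10 kb of an *Epi/FB:dnAP-1*-only site, out of 15741 on chromosomes 1 to 25. As in the distances above, these 15741 take in sites on those chromosomes that were set aside by position. Their median maximum was 41.48 in *Epi/FB:dnAP-1* replicate 1 and 40.12 in replicate 2, whereas it was 31.50 in control replicate 1 and 26.22 in replicate 2. After each library was centred on its median over the 15741 sites, on the log2 scale, these medians came to 0.10 and 0.08 with *Epi/FB:dnAP-1*, against -0.06 and -0.07 in control libraries. The median log2 difference per site, *Epi/FB:dnAP-1* minus control, was 0.11, against -0.01 over all 15741 sites and -0.06 over the 425 such sites within 10 kb of a control-only site. Both *Epi/FB:dnAP-1* libraries lay above both controls at 561 of the 1577 (35.6%), against 4113 of the 15741 (26.1%), and below both at 304 (19.3%), against 4541 (28.8%). With 1 library left out the difference was 0.06 to 0.12, the lowest without *Epi/FB:dnAP-1* replicate 2, and 0.07 without *Epi/FB:dnAP-1* replicate 1 or control replicate 2. Within 50 kb it was 0.06. Its size depends on the scale, since without centring it was 0.46 on the authors' scale and 1.42 in steps.

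In some places the sites followed one another closely. The densest windows of 500 kb, a size chosen after positions were seen, held 10 to 12 of them, and 5 such runs are given. Of the merged sites in these runs, they were 12 of 34 on chromosome 5, 11 of 36 on chromosome 22 and 10 of 26 on chromosome 7. They were 10 of 24 on chromosome 14 and 10 of 37 on chromosome 21, next to 7.33% of all kept sites. These shares are raised by choosing the windows by their members. On chromosome 5, 12 sites lay within chr5:32342140-32817149, a stretch where *Epi/FB:dnAP-1* replicate 1 had 30 peaks and replicate 2 had 29, while control replicate 1 had 14 and replicate 2 had 16, with no control-only site. The share under peaks was 14.1 and 16.3% for *Epi/FB:dnAP-1*, against 7.94 and 9.01% for control libraries. The maxima of its 12 members ran from 12.92 to 59.16 in replicate 1 and from 12.92 to 57.12 in replicate 2. The strongest, chr5:32561399-32563488, had 59.16 and 57.12, with the maxima 2.00 bp apart and the nearest control peak 10.3 kb away. Among them stood 11 sites called in all lists, of which the highest reached 59.84 and 68.00 for *Epi/FB:dnAP-1*, against 42.84 and 34.50 in control libraries. At another, chr5:32394900-32399508, the groups overlapped, with 49.64 and 61.88 for *Epi/FB:dnAP-1*, against 44.10 and 52.44 in control libraries.

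On chromosome 7, 10 sites lay within chr7:29965995-30436657, which includes the site assigned to *aldh1a2*, whose product makes retinoic acid and which marks injured epicardium and endocardium in zebrafish. Here *Epi/FB:dnAP-1* replicates had 19 and 22 peaks, which covered 9.55 and 12.4% of the stretch, and control replicates had 10 and 11, which covered 5.04 and 4.85%. The site that overlaps the *aldh1a2* region, chr7:30322705-30327907, had maxima of 27.88 and 17.68, which lay 2516 bp apart, and a total signal of 25150 and 15337. Its neighbour chr7:30313314-30318380 had 24.48 and 30.60, and its maxima lay 54.5 bp apart. Beside these stood sites called in all lists, of which chr7:30336167-30338273 had maxima of 50.32 and 44.88 for *Epi/FB:dnAP-1*, against 32.76 and 26.22 in control libraries, and chr7:30339884-30344211 had 18.36 and 15.64 against 15.12 and 16.56. The first of these was higher in both *Epi/FB:dnAP-1* libraries than in both controls, and in the second the groups overlapped.

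The other runs had 10 or 11 members each. In chr14:7769112-8050177, 10 sites included chr14:7917149-7918408, with 57.80 and 48.96, and chr14:7793286-7794643, with 44.88 and 46.92. The same stretch held the run's highest peaks, 110.16 and 123.76 for *Epi/FB:dnAP-1*, against 80.64 and 46.92 in control libraries, at a site called in all lists. In chr22:2098533-2481062, 11 sites had maxima of up to 31.28 and 36.04, and peaks covered 23.8 and 27.5% for *Epi/FB:dnAP-1*, against 13.1 and 11.6% in control libraries. In chr21:2194123-2637077, 10 sites had maxima of up to 35.36 and 44.20, next to 14 sites in all lists and 1 control-only site. In each of the 5 runs, peaks covered more of the stretch in both *Epi/FB:dnAP-1* libraries than in both controls, which follows in part from choosing runs by their *Epi/FB:dnAP-1*-only sites.

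**Figure D4:**
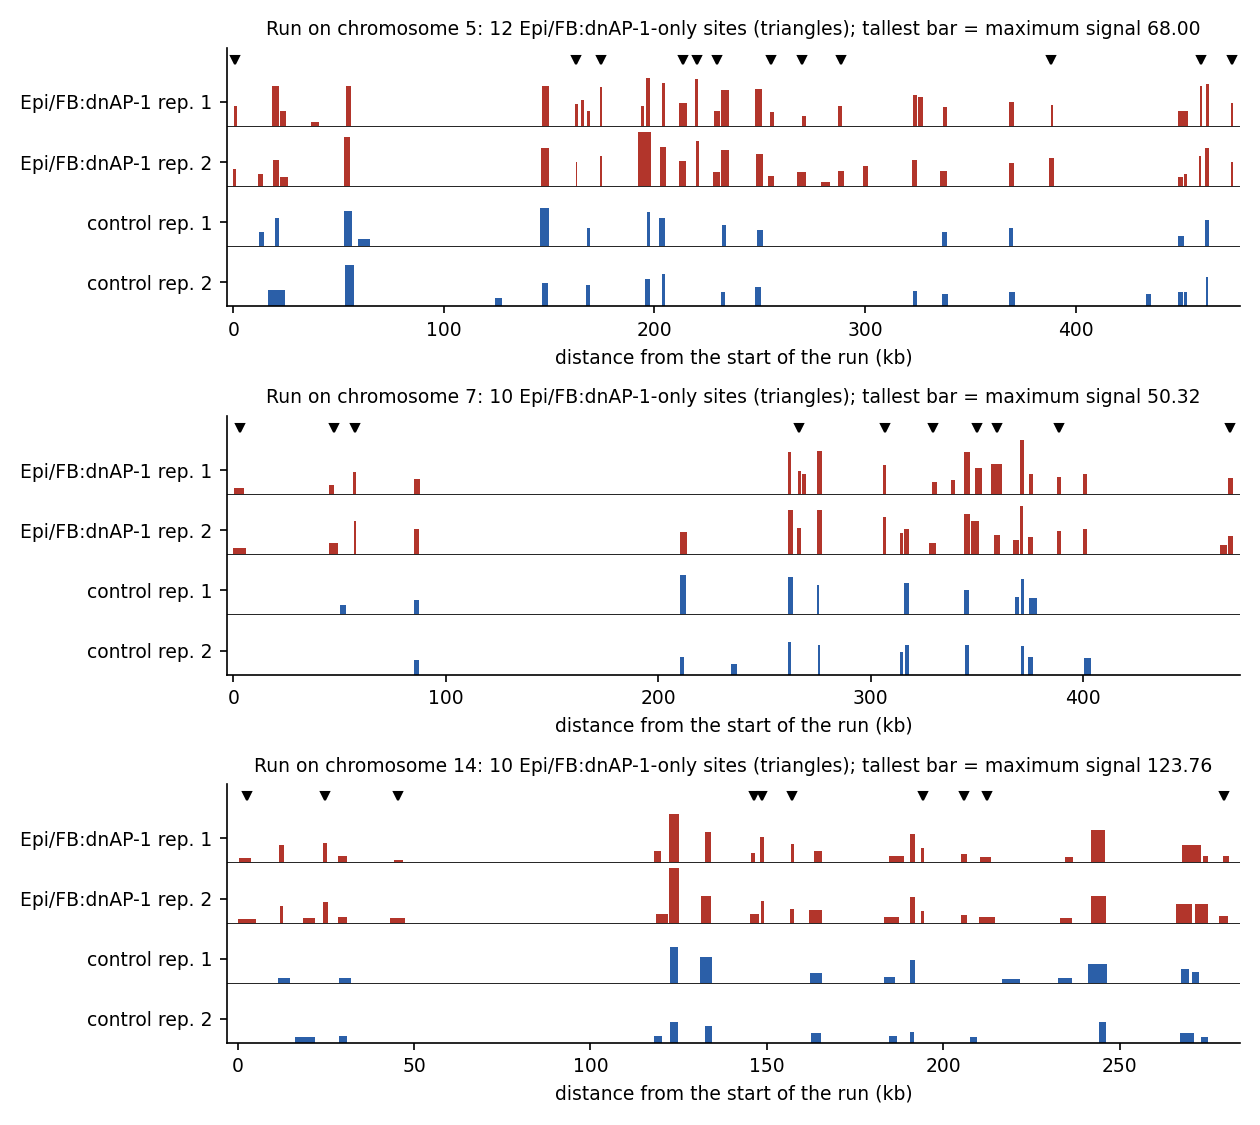
Called peaks in 3 of the runs, by distance from the start of the run (kb); each bar is a peak, as wide as the peak and as tall as its maximum signal, with tracks of 1 panel on 1 scale, and triangles mark the *Epi/FB:dnAP-1*-only sites. Sites called in all 4 lists stand between the triangles in every panel, and the run on chromosome 5 holds 30 and 29 peaks for *Epi/FB:dnAP-1*, against 14 and 16 in control libraries.

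Genes were named only where a site overlapped a region of open chromatin that the study's supplementary table pairs with a gene symbol, an open region of Epi/FBs that overlaps a known candidate TREE (tissue regeneration enhancer element). The table was held in part, without chromosomes 8 and 9 and part of 7, and the build of its coordinates is not stated. They were read as GRCz11, since 626 of 1999 regions (31.3%) then overlapped a called site, against 364 (18.2%) with its other set of coordinates. An *Epi/FB:dnAP-1*-only site overlapped 39 of the 1999 regions (1.95%), with 39 gene symbols. The counts for gene groups below are of a few regions each, and none was tested against this share. The pairing is that of the table, and no gene was shown to respond. Maxima below are for *Epi/FB:dnAP-1* replicates 1 and 2 in that order, and no control library had a peak at any of these sites.

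Among epicardial and mesenchymal genes, *aldh1a2* and *nr2f2* had such a site, of 18 genes with a region in the table. At *nr2f2*, which encodes an orphan nuclear receptor of veins, atria and mesenchyme, the site chr18:24014046-24015364 had maxima of 17.68 and 19.04, 34.0 bp apart. The nearest control peak was 9.52 kb away, with a maximum of 26.46, at a site called in all lists. Of the 31 regions of this group, 2 lay in *Epi/FB:dnAP-1*-only sites, none in control-only sites and 5 in sites called in all lists. Of 37 regions of matrix and fibroblast genes, 1 lay in an *Epi/FB:dnAP-1*-only site, 1 in a control-only site and 3 in sites called in all lists. The first is at *vcana*, which encodes the matrix proteoglycan versican. Its site, chr5:46385202-46389920, was a low plateau of 4719 bp with maxima of 10.88 and 8.16, 25.1 kb from the nearest control peak. For AP-1, Tead and TNF signalling the count was 1 of 19 regions, at *nfkb1*, which encodes a precursor and subunit of NF-kB. That site, chr14:49587073-49590058, had maxima of 14.28 and 19.04 and was among the weaker ones, at the 34.1 and 9.66 percentiles. None of 38 regions of secreted signals lay in an *Epi/FB:dnAP-1*-only site, while 5 lay in sites called in all lists. Over all 1999 regions the share in *Epi/FB:dnAP-1*-only sites was 1.95%. The counts of these groups rest on a few regions each and were not tested against it, so no difference is drawn.

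The table also pairs regions with genes of other cell types. Since all its regions are open in Epi/FBs, they are no marker of those cells. Of these, 1 lay in an *Epi/FB:dnAP-1*-only site, out of 26 paired with endothelial, 14 with macrophage and immune, 9 with muscle and 2 with blood genes. It is at *klf1*, an erythroid transcription factor. The *klf1* site, chr6:8080795-8089121, was wide (8327 bp) and low, with maxima of 8.84 and 10.88, and lay 17.7 kb from the nearest control peak. Over all 1999 regions the share in *Epi/FB:dnAP-1*-only sites was 1.95%. The part of other cell types in these sites was not tested.

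The remaining named sites covered a mixture of roles. Transcription factors and nuclear receptors were *nfixa*, a nuclear factor I protein (22.44 and 29.92), *e2f3*, which drives entry into the cell cycle (38.76 and 32.64), *ahr2*, an aryl hydrocarbon receptor (19.72 and 23.80), and *nr3c2*, the mineralocorticoid receptor (17.00 and 19.72). Of these, *ahr2* stood alone, 94.5 kb from a control peak and 182 kb from a site called in all lists, and *e2f3* was 1.63 kb from such a site. Receptors and surface proteins were *lifrb*, a subunit of the receptor for LIF (12.24 and 10.20), *s1pr5a*, a sphingosine-1-phosphate receptor (21.76 and 23.80), *gpr160*, an orphan receptor (14.28 and 16.32), and *nphs1*, the podocyte adhesion protein nephrin (36.72 and 29.24). These 4 lay 1.12 to 6.97 kb from a control peak.

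Enzymes and regulators made up the rest. Among the higher ones were *adprh*, which removes ADP-ribose from arginine (30.60 and 39.44), at chr12:15148088-15149593, 54.2 kb from a site called in all lists, *nmt1b*, an N-myristoyltransferase (34.68 and 31.28), at chr12:15759482-15760528, a site of 1047 bp, and *atp6v0cb*, a membrane subunit of the vacuolar proton pump (27.88 and 36.72). The stress-induced regulator *sesn1* had 27.20 and 22.44, the actin and phosphatase regulator *phactr4b* had 23.12 and 22.44, and *cyp7a1*, the rate-limiting enzyme of bile acid synthesis, had 17.68 and 18.36. Lower maxima stood at *snx8a*, a sorting nexin (13.60 and 15.64), *appbp2*, a substrate receptor for a ubiquitin ligase (11.56 and 8.84), and *kctd12.2*, a BTB-domain protein (12.24 and 13.60). Between them were *terb2*, a meiotic telomere protein (20.40 and 19.72), the microRNA gene *mir135a* (19.04 and 21.08), *zgc:77938* (21.08 and 19.04) and *si:ch73-127m5.2* (25.84 and 17.00). In the gene order of the newer assembly GRCz12tu, *vcana* is the direct neighbour of *hapln1a*, whose product links hyaluronan to proteoglycans. Of the 26 named sites, those at *aldh1a2* and *lifrb* overlapped a site called under the common minimum of total signal, as did 349 of all 3000 (11.6%).

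**Figure D5:**
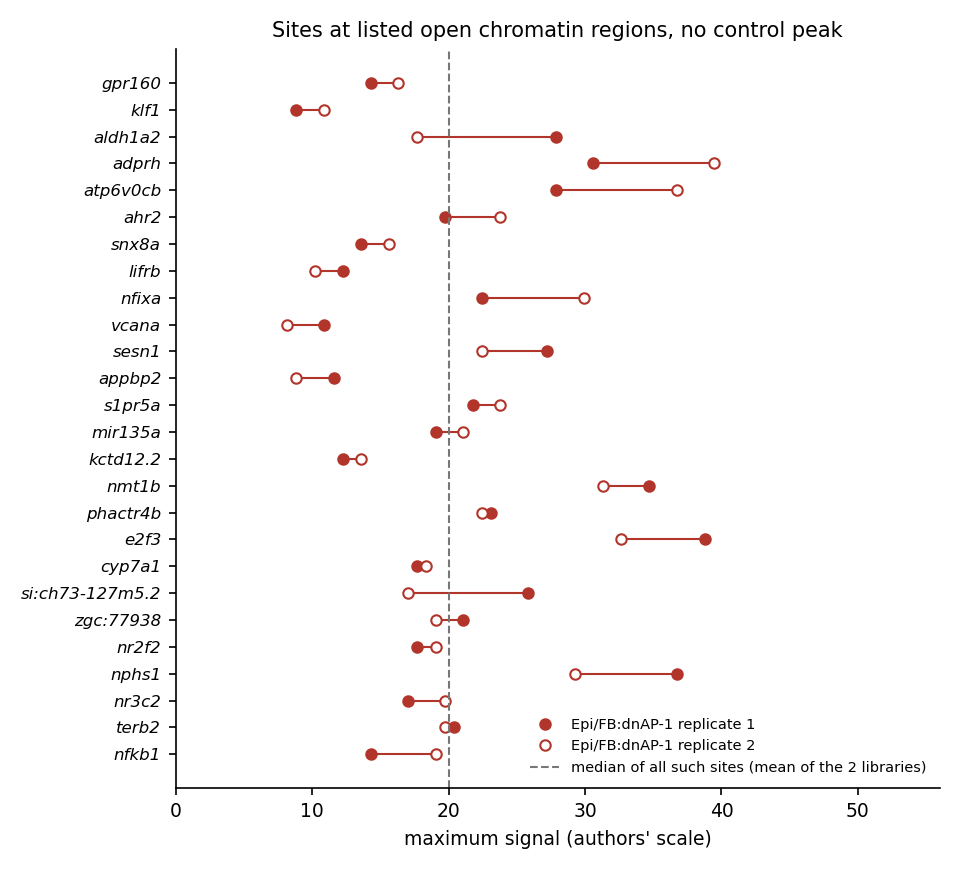
Maximum signal (authors' scale) in the 2 *Epi/FB:dnAP-1* libraries at the 26 named sites, ordered by the percentile of total signal in the weaker library (*nfkb1* comes from the fixed lists); the dashed line is the median over all *Epi/FB:dnAP-1*-only sites, averaged over the 2 libraries. Maxima range from 8.16 at *vcana* to 39.44 at *adprh*, and controls have no peak at any of them.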

How the data were processed

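The study's authors used cutadapt 2.7 for trimming and Bowtie2 2.2.5 for alignment of the CUT&Tag reads to GRCz11, removed unmapped reads and duplicates with SAMtools 1.9 and Picard, and scaled the coverage of each library with ChIPseqSpikeFree. Each deposited list holds the peaks of 1 library. The peaks that the study made from merged replicates were not used here. The methods name MACS2 and SEACR, and the lists have the 6 columns of SEACR. The deposited values are signal (coverage summed over a peak, and its maximum), with no read totals, so no counting interval could be given. *Epi/FB:dnAP-1* replicate 1 has 38429 peaks and replicate 2 has 32978, while control replicate 1 has 32638 and replicate 2 has 33076.

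Coordinates are GRCz11, from 1. Peaks sharing at least 1 bp were merged, and percentiles of total signal were taken within lists (at a site with several peaks of a list, totals were summed, and the maximum and percentile were those of the highest). Named were the 25 genes whose site ranked highest in its weaker *Epi/FB:dnAP-1* library and any gene of the fixed lists. By position, the 5 strongest and 3 widest sites and the strongest of a run were given, and the 3 tallest, the most isolated and the sites beside *aldh1a2* were added after values were seen. The sites and gene lists were chosen with earlier results of these data known. No overlap test was run on the region table, and neighbours came from GRCz12tu gene order (all 39 symbols matched). No genome sequence was used, so motifs were not analysed. The counting was tested on simulated lists. Python 3.11.15, numpy 2.4.6, pandas 2.3.3, scipy 1.17.1 and matplotlib 3.10.9 were used.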

Additional observations from a re-analysis of the deposited data

How the results depend on the processing

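No paired analysis was possible because the labels link no *Epi/FB:dnAP-1* library to a control library beyond the replicate number. The results are counts, medians and shares that come from no test, and a test across sites was not run. The 3000 *Epi/FB:dnAP-1*-only and 1149 control-only sites became 1428 and 583 in the top 50% of each list, 579 and 1845 with a common minimum of total signal, and 5991 and 154 with that minimum in steps. Counts in steps are not corrected for sequencing depth. Leaving out 1 library gave 5128 to 7149 and 1683 to 5870 sites, more than with all libraries since fewer lists must agree, and without control replicate 1 or 2 the control-only sites were the more numerous (5128 against 5417, and 5140 against 5870). The median width of 2356 bp was 2807 bp in the top 50% and 2063 to 2658 bp with a library left out. The median percentile of 28.4 (mean of the 2 libraries) was 62.8 in the top 50%, which follows from the selection, and 20.5 to 32.4 with a library left out. The 41.8% of sites within 10 kb of a site in all lists became 26.9% when a peak had to cover 50% of a site, 39.2% when peaks within 500 bp were merged, 28.0% in the top 50%, 35.8% and 28.1% with the common minimum on the authors' scale and in steps, and 41.3 to 48.9% with a library left out. It was 29.6% at 5 kb and 77.3% at 50 kb. The flanking log2 difference of 0.11 was 0.46 uncentred, 1.42 in steps, 0.06 within 50 kb and 0.06 to 0.12 with a library left out, positive throughout. Causes were not tested.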

Other observations

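Sites set aside by position also met the rule. Of 5738 merged sites on unplaced scaffolds, 731 (12.7%) were called in both *Epi/FB:dnAP-1* lists alone and 163 (2.84%) in both control lists alone. The 731 had median maxima of 23.12 in both *Epi/FB:dnAP-1* replicates. Near chromosome ends the counts were 175 (5.67%) and 86 (2.78%) of 3089 sites. On chromosome 4 from 30 Mb on the order was the opposite, with 28 *Epi/FB:dnAP-1*-only sites (1.48%) and 174 control-only sites (9.17%) of 1897. In the block on chromosome 23, 14 of 21 sites (66.7%) were *Epi/FB:dnAP-1*-only and none was control-only, with a median maximum of 17.34 in *Epi/FB:dnAP-1* replicate 1 and of 15.30 in replicate 2.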
